A study of Homo sapiens with 6 samples.

Results

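The genes described here encode 10 proteins of heterochromatin, of Polycomb repression and of the nuclear lamina: CBX1, CBX3, CBX5, SUV39H1, SUV39H2, EHMT2, SETDB1, EZH2, LMNB1 and LBR. They were taken by gene symbol from the table of read counts, which lists 25349 genes, and all 10 were among the 14661 genes with enough reads to be tested. The cells were SCC-9, an established line of squamous carcinoma of the human tongue, grown in DMEM and Ham's F12 with serum and hydrocortisone. In the siE7 group (3 libraries), the siRNA targeted exon 7 of MKI67, which encodes the proliferation antigen Ki67, and was transfected at 10 nM with Lipofectamine 3000 on day 0 and, after passage, on day 2. The siNC group (3 libraries) received a nonspecific siRNA in the same way, and polyadenylated RNA of both groups was taken on day 4. The sources used here do not say which of the 3 siRNAs made against exon 7 was used for these libraries, nor whether the libraries of a group came from separate cultures, so the p-values measure only the spread between these samples. The data come from 1 cell line, and no untransfected cells are among the samples.

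Heterochromatin is the compact, largely silent part of the genome, and its nucleosomes carry methyl groups on lysine 9 of histone H3 (H3K9). SUV39H1, SUV39H2, EHMT2 and SETDB1 write this mark, and the HP1 proteins, encoded by CBX5 (HP1α), CBX1 (HP1β) and CBX3 (HP1γ), bind it and recruit further enzymes. Much of this chromatin lies against the nuclear lamina, a meshwork of lamins such as lamin B1 (LMNB1), and is tethered there by the lamin B receptor (LBR), a protein of the inner nuclear membrane. EZH2 writes the separate silencing mark on lysine 27 (H3K27) as the catalytic subunit of Polycomb repressive complex 2 (PRC2). Ki67 itself is known as an organizer of heterochromatin, which is the question these genes bear on.

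The libraries held between 25608192 and 29550264 counted reads. MKI67 had 1072, 1029 and 1077 CPM (counts scaled to the library size) in siNC and 112, 124 and 108 CPM in siE7, so the targeted gene fell in every siE7 library (log2 fold change -3.21, SE 0.114, adjusted p = 6.71e-08, edgeR's quasi-likelihood F-test with Benjamini-Hochberg adjustment, used for every adjusted p of a gene below). All 10 markers of epithelial cells and squamous keratinocytes were above 1 CPM, from EPCAM (mean 49.6 CPM) to KRT14 (mean 10631 CPM). With siE7, 6 of them fell and 1 rose. CDH1, the gene of E-cadherin, had the largest of these falls (log2 fold change -1.03, SE 0.126, adjusted p = 0.000139), and the part of these markers in the results below was not tested. The summed level of 6 leukocyte markers, of which 2 (CD14 and ITGAM) are in the table, was at most 3.84 CPM and that of 5 endothelial markers at most 0.568 CPM. The 6 fibroblast markers summed to between 16.5 and 19.6 CPM in siNC and between 18.2 and 24.2 CPM in siE7, most of it COL1A1. Over all tested genes, 34.0% passed an adjusted p of 0.05, 18.0% higher and 16.0% lower with siE7.

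1 library stood apart. siE7 replicate 1 was separated from siE7 replicates 2 and 3 along the second principal component, which held 17.8% of the variance, and its difference from them followed the GC content of the genes (Pearson's r = 0.65 and Spearman's rho = 0.71 over 14645 genes that share the same libraries, a description across genes). The knockdown of MKI67 was as deep in it as in the others. Values without this library are given beside the members and lists it changed most.

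3 of the 10 genes passed the adjusted p of 0.05, a share close to the 34.0% of all tested genes. CBX1 rose, while CBX5 and SUV39H1 fell. None of the 10 differed by more than 1 on the log2 scale, whatever the p and by edgeR or DESeq2, while 12.2% of all tested genes did so at that adjusted p. At an unadjusted p under 0.05 (edgeR), 3 genes passed as well, against 44.5% of all tested genes. In 5 genes (CBX1, CBX5, SUV39H1, SETDB1 and LBR) the libraries of the groups did not overlap, against 47.6% of all tested genes. The median log2 fold change was 0.04 over the 10 genes and 0.08 over all tested genes. As in any bulk sample, fewer cells of a type and less RNA per cell cannot be told apart.

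**Figure D1:**
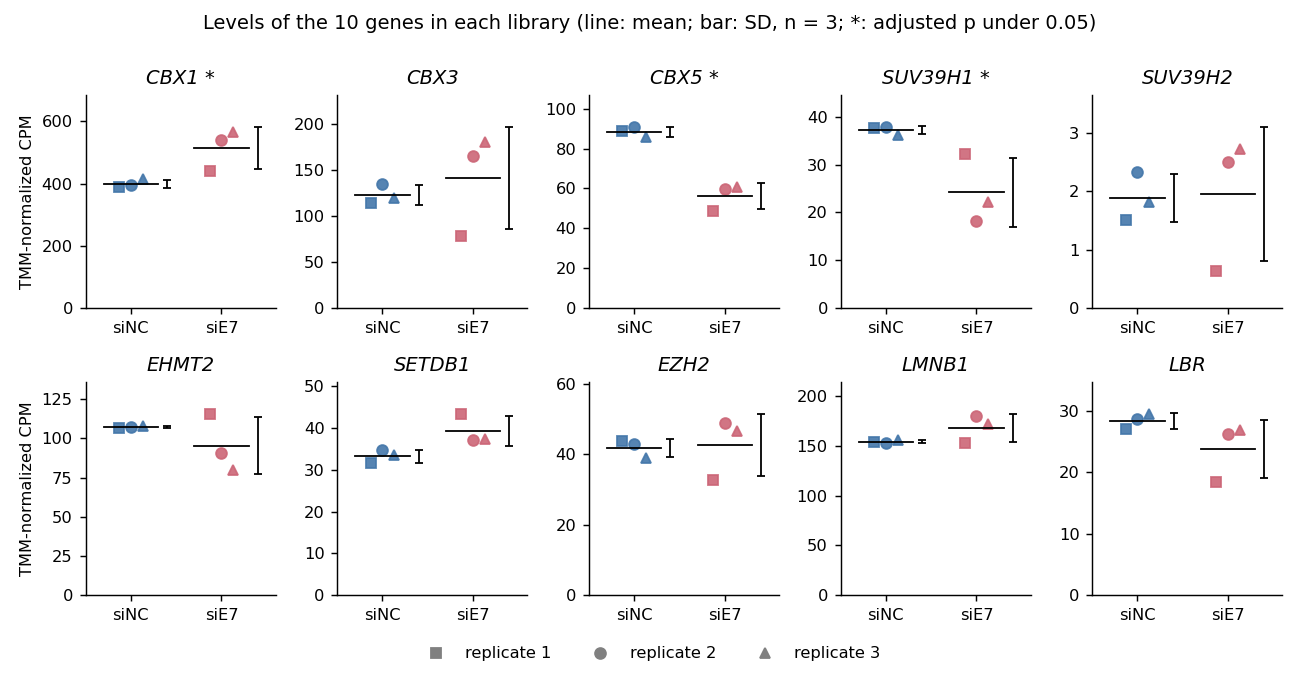
Levels of the 10 genes in CPM (vertical axes, linear and starting at 0) in the 3 siNC and the 3 siE7 libraries. Each symbol is a library, with squares, circles and triangles for replicates 1, 2 and 3; horizontal lines are means, vertical bars SD (n = 3), and asterisks mark an adjusted p under 0.05. CBX1 lies higher, and CBX5 and SUV39H1 lower, in all siE7 libraries. siE7 replicate 1 sits apart from the other siE7 libraries in these 3 genes and in the others.

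The HP1 genes moved in different directions. CBX5 encodes HP1α, the form most tied to constitutive heterochromatin around centromeres. It had 88.7, 90.8 and 85.9 CPM in siNC and 48.6, 59.6 and 60.6 CPM in siE7. Every siE7 library lay well below every siNC library, with replicate 1 the lowest. CBX5 fell by 0.65 on the log2 scale (SE 0.120, adjusted p = 0.00179 by edgeR's quasi-likelihood F-test). This call remained under all 15 alternative settings, with log2 fold changes from -0.78 to -0.48. CBX5 was the only member called whichever library was left out.

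CBX1 encodes HP1β, which binds methylated H3K9 throughout the nucleus. Its level was 388, 396 and 415 CPM in siNC and 439, 541 and 565 CPM in siE7. The lowest siE7 library lay above the highest siNC library, with replicate 1 the closest to siNC. CBX1 rose by 0.37 on the log2 scale (SE 0.118, adjusted p = 0.0328 by edgeR's quasi-likelihood F-test). The call was lost under 7 of 15 alternatives, with log2 fold changes between 0.30 and 0.39 there and adjusted p-values between 0.0612 and 0.135: these were DESeq2, edgeR with RLE factors, and the omission of any library other than siE7 replicate 1.

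CBX3 encodes HP1γ, a form also found over transcribed genes. It had 114, 134 and 119 CPM in siNC and 78.3, 165 and 180 CPM in siE7. Replicate 1 lay below all siNC libraries, and replicates 2 and 3 lay above them. Its log2 fold change of 0.20 (SE 0.240, 95% interval -0.32 to 0.73) did not pass the test, with an adjusted p of 0.537 by edgeR. Without siE7 replicate 1, CBX3 was higher in siE7 by 0.43 (adjusted p = 4.65e-07, edgeR), in a comparison in which 58.4% of all tested genes were called. With all libraries kept and the trend of GC content removed from each, the value was 0.04 (adjusted p = 0.843, edgeR).

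The proportion between HP1 genes was read from counts within a library, where differences in scaling between libraries cancel. The log2 ratio of CBX5 to CBX3 was -0.47 ± 0.101 in siNC and -1.24 ± 0.483 in siE7 (SD, n = 3), a difference of -0.78 with no overlap between the groups. A two-sided exact permutation test yielded p = 0.10, the lowest that 3 against 3 libraries allow, and 0.20 after Benjamini-Hochberg adjustment over 10 gene pairs. The ratio of CBX1 to CBX3 overlapped between the groups (difference 0.24, exact permutation p = 0.60). The ratio of CBX5 to CBX1 was chosen with the values in view and carries no test. It was -2.13, -2.12 and -2.27 in siNC and -3.18, -3.18 and -3.22 in siE7. Here siE7 replicate 1 lay with the other siE7 libraries, and the means differed by -1.02 on the log2 scale.

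Copies of the HP1 genes, and neighbours that overlap them, could share reads with them. CBX5 lies at chr12:54230942-54280133 on the minus strand (GRCh38, GENCODE v44), and the start of HNRNPA1, an abundant splicing factor gene, lies 604 bases from the start of CBX5 on the other strand. HNRNPA1 does not overlap CBX5 and had a log2 fold change of -0.25 (SE 0.107, adjusted p = 0.0936, edgeR). CBX3 likewise lies head to head with HNRNPA2B1, with 999 bases between the starts, but these genes overlap. They share 7.60% of the exon bases of CBX3, on the other strand. HNRNPA2B1 had a log2 fold change of 0.02 (adjusted p = 0.927, edgeR). The annotation names 5 copies of CBX1, 10 of CBX3 and 1 of CBX5, and most of them are not among the counted genes. The processed copies CBX1P1, CBX1P3, CBX3P2 and CBX3P9, which are, took 7, 7, 20 and 13 reads in all 6 libraries together. How reads that fit several places were assigned is not given in the sources used here.

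The promoters of the genes that moved are printed because CBX1 and CBX5, of the same family, went opposite ways, and because SUV39H1 fell with CBX5. Each window runs from 250 bases before to 50 bases after the annotated start (RefSeq, GRCh38.p14, written 5′ to 3′ on the gene's strand). Capitals mark a CCAAT box, read as CCAAT on the printed strand or ATTGG where it lies on the other. CBX1 lies at chr17:48101137-48101436 on the minus strand, CBX5 at chr12:54280073-54280372 on the minus strand, and SUV39H1 at chrX:48696484-48696783 on the plus strand.
CBX1: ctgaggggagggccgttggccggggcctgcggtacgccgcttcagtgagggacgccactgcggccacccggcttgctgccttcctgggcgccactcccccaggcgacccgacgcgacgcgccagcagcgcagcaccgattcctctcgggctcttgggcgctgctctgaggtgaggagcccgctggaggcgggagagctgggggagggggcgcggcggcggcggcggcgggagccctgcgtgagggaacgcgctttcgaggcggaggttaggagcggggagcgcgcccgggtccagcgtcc
CBX5: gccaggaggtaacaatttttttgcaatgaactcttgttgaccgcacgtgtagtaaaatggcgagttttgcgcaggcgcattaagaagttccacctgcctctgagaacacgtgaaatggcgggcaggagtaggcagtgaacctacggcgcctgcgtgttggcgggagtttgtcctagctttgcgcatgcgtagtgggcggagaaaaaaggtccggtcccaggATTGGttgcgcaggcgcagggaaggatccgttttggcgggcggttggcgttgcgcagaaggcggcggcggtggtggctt
SUV39H1: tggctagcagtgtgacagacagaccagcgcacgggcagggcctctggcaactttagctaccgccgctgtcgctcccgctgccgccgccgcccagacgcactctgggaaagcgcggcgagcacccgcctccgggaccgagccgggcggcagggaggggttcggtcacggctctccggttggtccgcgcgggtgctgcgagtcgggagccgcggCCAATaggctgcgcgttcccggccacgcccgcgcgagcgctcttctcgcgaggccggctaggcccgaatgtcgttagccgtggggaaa
The CBX1 window is the richest in G and C (75.7%, against 57.3% for CBX5 and 72.0% for SUV39H1) and holds no searched motif. Those of CBX5 and SUV39H1 each hold a CCAAT box, at positions -29 and -38 from the start. The GENCODE v44 start of CBX1 is at chr17:48101478, outside its window, so the whole window lies inside the gene as annotated there. The windows of CBX5 and SUV39H1 span their GENCODE v44 starts, so the CBX1 window is not like them in placement. The letters CCAAT or ATTGG occur in 34.6% of 35116 promoter windows of this length, and in 6 of the 16 windows of the 10 genes. These 6 windows belong to 4 genes (CBX5, SUV39H1, EZH2 and LMNB1).

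Letters of E2F sites, which mark many genes of DNA replication, were searched on both strands as TTTCCCGC, TTTGGCGC, TTTCGCGC and TTTGCCGC. They occur in 3.31% of all promoter windows and in 2 of the 16 windows of the 10 genes, 1 each of CBX3 and EZH2. Both are shown here with the site in capitals, as the least common of the searched motifs. The CBX3 stretch lies at chr7:26201421-26201465 on the plus strand and the EZH2 stretch at chr7:148884264-148884308 on the minus strand.
CBX3: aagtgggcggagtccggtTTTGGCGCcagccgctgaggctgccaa
EZH2: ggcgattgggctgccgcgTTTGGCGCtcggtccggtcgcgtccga
The same letters, TTTGGCGC, stand in both, at position -4 from the annotated start in CBX3 and at position 1 in EZH2. These positions use the RefSeq starts of the windows. The GENCODE v44 start of CBX3, from which the 999 bases to HNRNPA2B1 were counted, is at chr7:26201745, downstream of the printed stretch. The CHR element of genes of mitosis was searched as TTTGAA and TTCGAA on both strands. It occurs in 16.4% of all windows and in 1 of the 16 windows of the 10 genes, which belongs to SUV39H2. No match of the 3 motifs overlapped another.

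Of the writers of H3K9 methylation, SUV39H1 fell and the others did not pass the test. SUV39H1 makes the trimethyl mark that HP1 binds around centromeres. It had 37.7, 37.8 and 36.2 CPM in siNC and 32.3, 18.2 and 22.3 CPM in siE7. All siE7 libraries lay below all siNC libraries, with replicate 1 the closest to siNC. SUV39H1 fell by 0.62 on the log2 scale (SE 0.185, adjusted p = 0.0234 by edgeR's quasi-likelihood F-test), and by 0.94 without siE7 replicate 1 (adjusted p = 2.61e-11, edgeR). The call was lost under 6 of 15 alternatives, at adjusted p-values between 0.0584 and 0.0800: scaling by library totals alone, and the omission of any library other than siE7 replicate 1. SUV39H1 (chrX:48695554-48709016, plus strand) shares 21.2% of its exon bases with a long noncoding RNA on the other strand, AF196970.3, which reached at most 0.162 CPM.

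Its paralogue SUV39H2, which makes the same mark, was the lowest of the 10 genes. It had 1.50, 2.32 and 1.82 CPM in siNC, from 37 to 58 reads, and 0.641, 2.50 and 2.71 CPM in siE7, from 19 to 83 reads. Replicate 1 of siE7 was the lowest of all 6 libraries, and replicates 2 and 3 the highest. The log2 fold change of 0.05 (SE 0.433) has a 95% interval of -0.90 to 1.00, and without siE7 replicate 1 the value was 0.41 (adjusted p = 0.188, edgeR). The log2 ratio of SUV39H1 to SUV39H2 ranged from 2.86 to 5.62 among siE7 libraries and from 4.01 to 4.63 among siNC libraries, and the groups overlapped.

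EHMT2 encodes G9a, which with its partner EHMT1 makes the mono- and dimethyl marks on H3K9 in the gene-rich part of the genome. It had 106, 107 and 108 CPM in siNC and 115, 90.7 and 79.8 CPM in siE7. The siNC libraries lay close together, with siE7 libraries on both sides of them. The log2 fold change was -0.17 (SE 0.137, 95% interval -0.47 to 0.13, adjusted p = 0.366, edgeR). Without siE7 replicate 1 it was -0.39 (adjusted p = 9.57e-07, edgeR), where 58.4% of all tested genes were called. With the trend of GC content removed from every library it was -0.17 (adjusted p = 0.0545, edgeR). The log2 ratio of EHMT2 to EHMT1 overlapped between the groups, with a difference of -0.11. EHMT2-AS1, an antisense gene over 8.11% of the exon bases of EHMT2, has no row in the table.

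SETDB1 makes the trimethyl mark at transposable elements, recruited by TRIM28. It had 31.6, 34.6 and 33.5 CPM in siNC and 43.3, 37.1 and 37.4 CPM in siE7. The groups did not overlap, and replicate 1 was the highest. With a log2 fold change of 0.24 (SE 0.122, 95% interval -0.03 to 0.51) SETDB1 did not pass (adjusted p = 0.150, edgeR). The value was 0.10 without siE7 replicate 1, its highest library (adjusted p = 0.268, edgeR). SETDB1 shares 12.9% of its exon bases with CERS2 on the other strand, and CERS2 lay between 89.0 and 90.0 CPM in siNC and between 84.5 and 105 CPM in siE7. The libraries were made to keep the strand, but its use in counting is not given in the sources used here.

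The lamina genes LMNB1 and LBR did not pass the test. LMNB1 had 154, 153 and 155 CPM in siNC and 153, 180 and 171 CPM in siE7. Replicate 1 of siE7 lay among the siNC libraries and the other siE7 libraries above them. The log2 fold change was 0.13 (SE 0.108, 95% interval -0.11 to 0.36, adjusted p = 0.393, edgeR). Without siE7 replicate 1 the value was again 0.13, with an adjusted p of 0.0436 by edgeR, where 58.4% of all tested genes were called. With the trend of GC content removed from every library it was 0.11 (adjusted p = 0.284, edgeR). LMNB1 is often followed as a marker of senescence, in which it is lost.

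LBR had 26.9, 28.6 and 29.4 CPM in siNC and 18.4, 26.1 and 26.9 CPM in siE7. The groups did not overlap, by a margin of less than 0.1 CPM, and replicate 1 was far below the rest. The log2 fold change was -0.25 (SE 0.158, 95% interval -0.60 to 0.10, adjusted p = 0.244, edgeR). With the trend of GC content removed from every library it was -0.35 and passed (adjusted p = 0.00668, edgeR), in a fit that called 49.4% of all tested genes. Without siE7 replicate 1 the value was -0.16 (adjusted p = 0.120), and with scaling by library totals alone it was -0.07 (adjusted p = 0.759).

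Both other lamin genes fell. LMNA, the gene of the A-type lamins, had 1379, 1348 and 1273 CPM in siNC and 1225, 906 and 907 CPM in siE7. LMNA fell by 0.40 on the log2 scale (SE 0.131, adjusted p = 0.0370, edgeR) and LMNB2, the gene of lamin B2, by 0.43 (SE 0.127, adjusted p = 0.0222, edgeR). Both calls depended on the setting, lost under 7 and 6 of 15 alternatives. Within libraries, the log2 ratio of LMNB1 to LMNA was -3.11 ± 0.0690 in siNC and -2.58 ± 0.367 in siE7, and that of LMNB1 to LMNB2 was -2.85 ± 0.0186 and -2.28 ± 0.353 (SD, n = 3). Neither ratio overlapped between the groups (exact permutation p = 0.10, adjusted p = 0.20 over 10 pairs). The ratio of LBR to LMNA did overlap (difference 0.14).

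EZH2 had 43.7, 42.8 and 38.8 CPM in siNC and 32.6, 48.7 and 46.5 CPM in siE7. Replicate 1 of siE7 was the lowest of the 6 libraries and the other siE7 libraries were the highest. Its log2 fold change of 0.03 (SE 0.155, 95% interval -0.31 to 0.37, adjusted p = 0.904, edgeR) did not pass under any of the 15 alternatives, and was 0.13 without siE7 replicate 1. Its paralogue EZH1, which replaces EZH2 in many resting cells, rose by 0.90 (SE 0.137, adjusted p = 0.000541, edgeR) and was called under all 15. The log2 ratio of EZH2 to EZH1 was 1.22, 1.20 and 1.24 in siNC and -0.16, 0.49 and 0.66 in siE7. Every siE7 library lay below every siNC library (difference -0.89, exact permutation p = 0.10, adjusted p = 0.20 over 10 pairs).

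EZH2 was also set against the other core subunits of PRC2. Its log2 ratio to SUZ12, the scaffold subunit, went from 2.51 ± 0.135 to 2.96 ± 0.138 (SD, n = 3) with no overlap (exact permutation p = 0.10, adjusted p = 0.20). That to EED, which reads the H3K27 mark, overlapped between the groups (difference 0.17). In all, 5 of the 10 ratios did not overlap between the groups, 2 of them lower and 3 higher with siE7. These pairs are not independent, since LMNB1 and EZH2 recur among them, and no share over other gene pairs was computed.

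The spread among siE7 libraries was wider than among siNC libraries for 10 of 10 genes, against 75.0% of all tested genes. siE7 replicate 1 was the highest or the lowest of the 6 libraries for 7 of the genes (50.1% of all tested genes). For 5 of the 10 genes (CBX3, SUV39H2, EHMT2, LMNB1 and EZH2) it lay on the other side of the siNC mean from replicates 2 and 3 combined, which held for 30.2% of all tested genes. These 5 genes did not pass the test, and 3 of them (CBX3, EHMT2 and LMNB1) passed without this library, as did 58.4% of all tested genes. Across the 10 genes, the difference of replicate 1 from the other siE7 libraries followed GC content as it did across all genes (Pearson's r = 0.76, Spearman's rho = 0.85, n = 10 genes of the same libraries, no test). SUV39H1 and EHMT2, with 57.6% and 60.9% GC, were higher in replicate 1, while CBX3, LBR and EZH2, with 39.5%, 37.8% and 40.8%, were lower. The part of GC content in the fold changes was tested only by removing its trend, after which CBX1, CBX5, SUV39H1, SETDB1 and LBR passed, 5 of 10 genes against 49.4% of all tested genes.

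**Figure D2:**
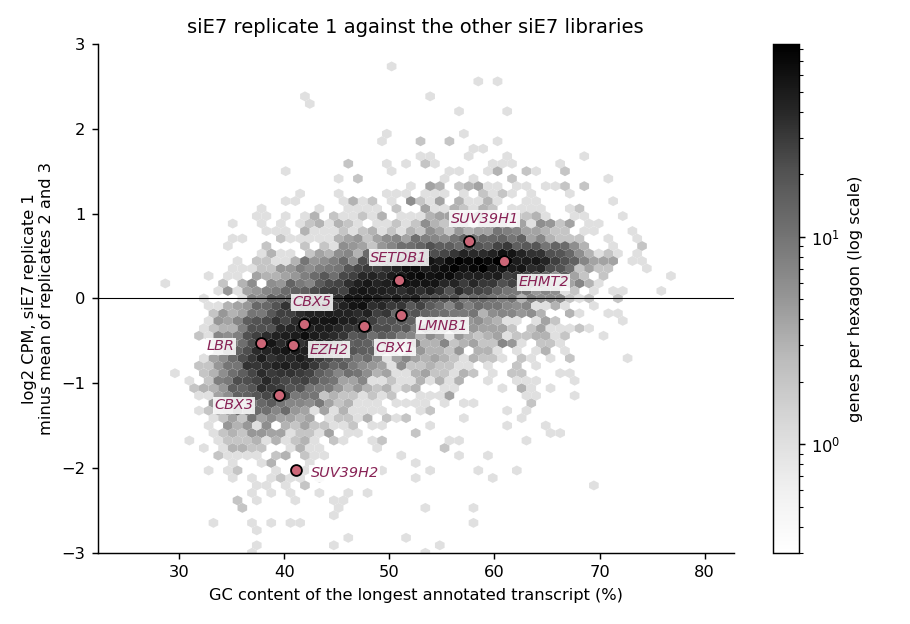
Difference of siE7 replicate 1 from the mean of siE7 replicates 2 and 3 (vertical axis, log2 CPM) against the GC content of the longest annotated transcript (horizontal axis, percent). Grey hexagons count tested genes on a log scale, with 12 genes outside the plotted range, and red points are the 10 genes. SUV39H1, EHMT2 and SETDB1 lie above 0 and the other 7 genes below it, with SUV39H2 the lowest at -2.02.

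**Figure D3:**
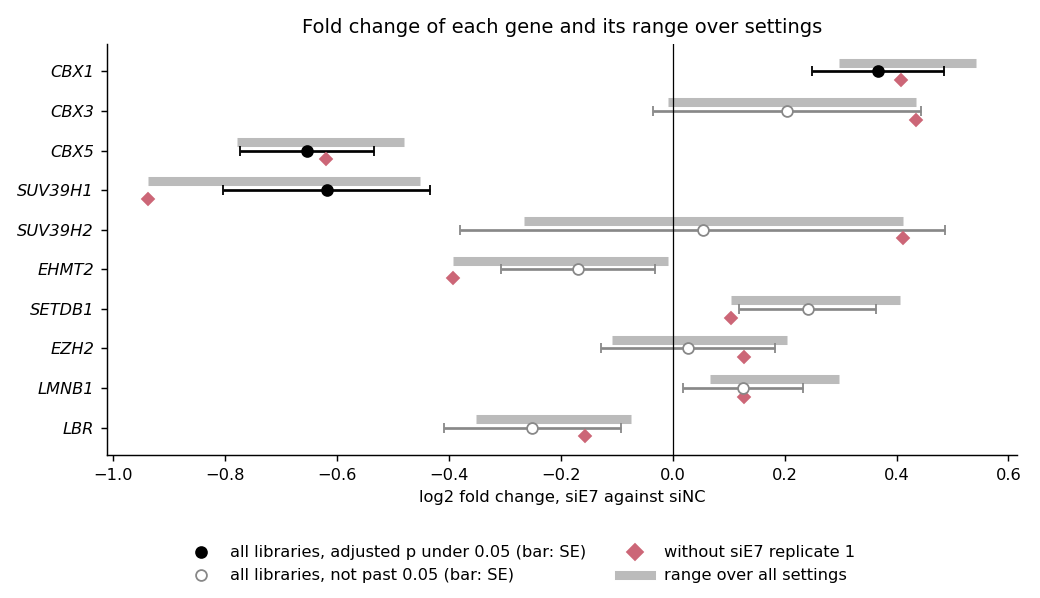
Log2 fold change of siE7 against siNC (horizontal axis) for each of the 10 genes. Circles with SE bars use all 6 libraries and are filled where the adjusted p was under 0.05, red diamonds leave out siE7 replicate 1, and grey bars span the values over all settings. The grey bars of CBX1, CBX5 and SUV39H1 stay on their side of 0, and so do those of EHMT2, SETDB1, LMNB1 and LBR. Those of CBX3, SUV39H2 and EZH2 cross it.

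Per kilobase of exon, the 10 genes spanned a wide range of levels. In siNC, CBX1 was the highest at 131 ± 4.50 CPM per kilobase (SD, n = 3), followed by LMNB1 at 42.4, CBX3 at 25.3, EHMT2 at 14.7, SUV39H1 at 11.5, CBX5 at 5.88, LBR at 4.96, SETDB1 at 4.51, EZH2 at 3.88 and SUV39H2 at 0.527. No neighbours in this order overlapped in siNC. In siE7, CBX5 stood at 3.74 ± 0.442 CPM per kilobase and had moved from rank 6 to rank 9, behind SETDB1 (5.33), LBR (4.17) and EZH2 (3.95). There the neighbours SUV39H1 and SETDB1, LBR and EZH2, and EZH2 and CBX5 overlapped. The order rests on the exon length used, and 5 of 10 siNC ranks were the same when the longest transcript of each gene gave the length. With that length CBX5 was at rank 7 in siNC and rank 9 in siE7, and EZH2 was already ahead of it in siNC.

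The genes most like each member over the 6 libraries were found by Pearson's r of log2 levels, as a description. For CBX5 they were MBOAT2, EPS15 and SLC2A12, for CBX1 DNAAF4-CCPG1, PPP1R15B and PMAIP1, and for SUV39H1 NECAP2, DENND3 and ADCK5, with r from 0.996 to 0.999. Such likeness was common: 63, 42 and 22 genes had r above 0.99 with CBX5, CBX1 and SUV39H1. For CBX3, GDI2 was the most alike (r = 0.999), and for EZH2 it was ATG4C (r = 0.996).

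The partners of the 10 genes were followed in lists written from general knowledge of these complexes. Of 27 tested genes of H3K9 methylation and HP1 partners, 1 rose, 3 fell and 23 did not pass, with a median log2 fold change of -0.11. Without siE7 replicate 1, 4 rose and 12 fell, in the comparison that called 58.4% of all tested genes. KMT5C, which is recruited by HP1 to methylate lysine 20 of histone H4, rose by 0.86 (SE 0.159, adjusted p = 0.00185, edgeR). ATRX, a remodeler that places histone H3.3 in heterochromatin, fell by 0.93 (SE 0.212, adjusted p = 0.00608). TRIM28, the corepressor that recruits SETDB1, fell by 0.50 (SE 0.139, adjusted p = 0.0162), a call lost under 5 of 15 alternatives. Of 11 tested H3K9 demethylases 3 rose and none fell (median 0.14), although without siE7 replicate 1 the count was 4 higher and 4 lower and the median -0.05. The calls of KDM4B (0.38, adjusted p = 0.0345), KDM3A (0.47, adjusted p = 0.0476) and KDM4C (0.41, adjusted p = 0.0487) were lost under 6, 7 and 9 of 15 alternatives.

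Maintenance of DNA methylation, which is coupled to H3K9 methylation in heterochromatin, had 2 genes higher and 4 lower among 14 tested (median -0.10). CDCA7L, a relative of the gene of the HELLS remodeler's partner CDCA7, fell by 1.55 (SE 0.121, adjusted p = 7.41e-06, edgeR). UHRF1, which reads H3K9 methylation at replicated DNA, fell by 0.71 (SE 0.128, adjusted p = 0.00172), and DNMT1, the maintenance methyltransferase it recruits, fell by 0.58 (SE 0.121, adjusted p = 0.00395). These 3 calls remained under all 15 alternatives.

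In the fit of all 6 libraries, the Polycomb lists were called about as often as all tested genes. Of 14 tested genes of PRC2 and the removal of its mark, 3 rose and 2 fell (median 0.27). With the GC trend removed 4 rose and 4 fell, where 49.4% of all tested genes were called. Without siE7 replicate 1, 7 rose and 3 fell (median 0.32), where 58.4% of all tested genes were called. KDM6B, which removes the H3K27 mark, rose by 1.02 (SE 0.165, adjusted p = 0.000843, edgeR), next to EZH1 above, and the histone chaperone RBBP4 fell by 0.87 (SE 0.120, adjusted p = 0.000304). Of 20 tested genes of Polycomb repressive complex 1, 6 rose and 1 fell (median 0.30), or 7 and 2 without siE7 replicate 1. They include KDM2B, which brings the complex to CpG islands (0.90, SE 0.122, adjusted p = 0.000257), and the chromodomain genes CBX7 (0.92, SE 0.151, adjusted p = 0.000850) and CBX8 (0.85, SE 0.162, adjusted p = 0.00228), relatives of the HP1 genes that read the H3K27 mark.

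Of 30 tested genes of the lamina and the nuclear envelope, 1 rose and 5 fell (median -0.04). Without siE7 replicate 1 there were 5 higher and 13 lower of 32 tested, against 58.4% of all tested genes called. SYNE2, whose product nesprin-2 links the nucleus to the cytoskeleton, fell by 1.08 (SE 0.113, adjusted p = 4.68e-05, edgeR) and SYNE1, the gene of nesprin-1, rose by 0.64 (SE 0.175, adjusted p = 0.0149). LMNB2 is the next by p-value, as given above. The share called was 20.0% here, 14.8% for H3K9 methylation and HP1 partners, 27.3% for H3K9 demethylases, 35.0% to 42.9% for the other lists, and 34.0% over all tested genes. Scaling by library totals alone moved the median of all genes up by 0.17 and turned the medians of the lamina, H3K9 methylation and DNA methylation lists positive (0.13, 0.05 and 0.07).

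Genes of the cell cycle, several of which are expressed together with EZH2, UHRF1 and DNMT1 in dividing cells, moved as well. Of 30 genes of the G1/S transition, 17 fell and 2 rose (median -0.36), and of 29 tested genes of G2 and mitosis, 15 fell and 0 rose by edgeR (median -0.56), against 16.0% lower and 18.0% higher over all tested genes. Without siE7 replicate 1, 20 fell and 7 rose among the G1/S genes, where 58.4% of all tested genes were called. In the same comparison, 22 fell and 3 rose among the genes of G2 and mitosis. The part of the cell cycle genes in the levels of the 10 genes was not tested.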

How the data were processed

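Polyadenylated RNA of 6 SCC-9 samples was sequenced as directional libraries on a NovaSeq 6000 (paired reads), and the authors deposited whole-number counts per gene, without normalization. The submitters' processing notes name HISAT2, DESeq2 and GRCh38 without versions; the counting tool, its use of strand and the annotation release are not given in the sources used here. Samples were grouped by title. Genes kept by filterByExpr were scaled by TMM factors and tested by edgeR 4.0.16 (R 4.3.3) with the robust quasi-likelihood F-test and Benjamini-Hochberg adjustment, at an adjusted p-value of 0.05 and a log2 fold change of 1. SE is the log2 fold change divided by the square root of F, and 95% intervals use the t quantile of its degrees of freedom. Levels (CPM) are counts scaled to the TMM-adjusted library size. Ratios used counts plus 0.5 and an exact two-sided permutation test. Depth was 25608192 to 29550264 counts, and intervals rest on 3 libraries per group. Lengths and GC content came from GENCODE v44 (25283 of 25349 identifiers matched without version, 20655 with it), promoters from RefSeq GRCh38.p14 (16 windows for the 10 genes). Proteins are not printed here.

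The alternatives were DESeq2 1.42.0, RLE, upper-quartile and no composition factors, dropping the low-count filter, a minimum of 10 counts per library, a replicate block, the GC trend of each library removed (lowess, span 0.3) alone or together with that block, and the omission of single libraries. The fits were tested on simulated data with the same spread for every gene and no library apart along GC content, unlike these data. There edgeR called 91% of genes given the larger change and 29% of those given the smaller, so smaller changes can be missed. The named genes are the 10 genes, MKI67, the partners in ratios, the neighbours whose starts lie head to head within 1000 bases, the 3 genes with the smallest p in each list of partners, and the 3 most alike, of which the text gives some. The 10 genes and the lists were chosen with earlier results of these data known. CERS2, EHMT2-AS1, AF196970.3 the processed copies and the cell type markers named fall outside this rule and were named after their values were seen. Tables and figures used Python 3.11.15, pandas 2.3.3, scipy 1.17.1 and matplotlib 3.10.9.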

Additional observations from a re-analysis of the deposited data

How the results depend on the processing

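The number of the 10 genes called was 3 as reported, 2 with DESeq2 and with RLE factors, 4 with scaling by library totals alone and with the GC trend removed together with the replicate block, 5 with the GC trend removed, and from 1 to 6 when 1 library was left out: 6 (CBX1, CBX3, CBX5, EHMT2, LMNB1 and SUV39H1) without siE7 replicate 1 and CBX5 alone without any other. No setting called a member beyond a log2 fold change of 1. Genes called in the lists of partners numbered 31, against 59 with the GC trend removed, 59 with that and the replicate block, and from 15 to 70 with a library left out (70 without siE7 replicate 1). Over all tested genes, calls numbered 4990, against 7229 with the GC trend removed, 8765 without siE7 replicate 1, and from 3153 to 3236 without an siNC library. Scaling by library totals alone made 71.2% of calls higher with siE7, against 52.9%, and called LMNB1 and SETDB1 but not SUV39H1.

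Some log2 fold changes and ratios turned sign. SUV39H2 (0.05) was -0.015 with DESeq2, -0.0040 with RLE factors, -0.088 with the replicate block, -0.14 with the GC trend removed, -0.22 with both, and from -0.27 to 0.41 with a library left out. EZH2 (0.03) was -0.034 with DESeq2, -0.024 with RLE factors, -0.11 with the GC trend removed, with or without the replicate block, and from -0.080 to 0.13 with a library left out. CBX3 ranged from -0.0076 to 0.43 in that way, and the ratios of CBX1 to CBX3 from -0.027 to 0.39, of SUV39H1 to SUV39H2 from -1.37 to 0.0056 and of LBR to LMNA from -0.030 to 0.46. The causes were not tested. With the longest transcript as length, 5 of 10 ranks by level were kept. Whether the replicate numbers pair the samples is not given in the sources used here. Deviations of same-numbered libraries correlated at -0.04, -0.02 and -0.05, and those of differently numbered libraries at -0.04 to 0.06. With 3 libraries per group such values do not settle the pairing. The replicate block called the same 3 genes, CBX1, CBX5 and SUV39H1, and 4947 genes in all. With 3 libraries per group, ratios cannot reach an exact p under 0.10.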
